A study of Homo sapiens with 6 samples.

Results

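The mitosis and spindle genes are 45 genes listed by symbol that act between entry into mitosis and the separation of daughter cells, and all 45 were found by their Ensembl identifiers among the 23406 features of the expression tables. They were measured in Hep-3B, a human hepatocellular carcinoma line of epithelial cells, by RNA sequencing of bulk cultures with an mRNA library kit. The shControl group (genotype label WT) carried a control shRNA plasmid, and the shNXN group (genotype label NXN knockdown) carried shRNA against NXN, the gene of nucleoredoxin, a thioredoxin family protein. Both were delivered by lentivirus, both groups were selected with 2 μg/mL puromycin for 1 week, and RNA was collected on days 7, 9 and 11, with 1 library per group and day. The labels count those days both from delivery of the shRNA and from the end of selection, so their starting point is uncertain. The labels give neither the number nor the sequence of the shRNAs against NXN. Nothing states that the days were separate transductions, so the p-values measure the spread between 3 libraries of a group, which may be technical and includes the days.

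Mitosis begins when cyclin B and CDK1 phosphorylate the proteins that reorganise chromosomes and the cytoskeleton, with CDC25 phosphatases switching the complex on. Kinetochores, built on centromeric chromatin, then attach chromosomes to spindle microtubules, the checkpoint delays separase until every chromosome is attached, and the midzone guides cytokinesis. Transcripts of these genes accumulate in G2 and M phase under B-MYB, FOXM1 and the MuvB core, and they are used in liver cancer as proliferation markers. In bulk RNA, fewer cells in G2 or M phase and less RNA per cell cannot be told apart.

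NXN itself, at chr17:799313-979770 on the minus strand (GRCh38, GENCODE 29), measured 180.4, 137 and 143 CPM in shControl cells and 42.6, 47.5 and 39.5 CPM in shNXN cells on days 7, 9 and 11, the order of days used throughout (CPM, estimated counts scaled to library size with TMM factors). The log2 fold change, always shNXN over shControl, was -1.83 ± 0.16 (standard error) with an edgeR adjusted p of 0.0378. The highest shNXN value lay under the lowest shControl value. The libraries held 15349382 to 16332589 estimated counts, and single members had between 13 counts (TTK, shNXN, day 9) and 15050 counts (TOP2A, shControl, day 9). All 8 hepatoma markers were at 1 CPM or more in every library. Their summed level was 11810 to 22190 CPM in shControl cells and 5308 to 13390 CPM in shNXN cells. Most of it in shControl cells was ALB (9558, 13640 and 6949 CPM, against 1419, 682 and 7244 CPM in shNXN cells). ALB, AFP, APOB, GPC3 and TTR had log2 fold changes from -1.69 to -0.12. APOA1, HNF4A and SERPINA1 went the other way, from 0.09 to 0.44. Of 12 markers of leukocytes, endothelium, fibroblasts or stellate cells and cholangiocytes, 11 were listed, and their sum was 224 to 319.7 CPM against 352.8 to 380.6 CPM, most of it SOX9 and CD68, while CD3E and VWF were at 0 everywhere. The part of these shifts in the results was not tested. Per transcript length, the members' mean level in shControl cells ran from 6.38 FPKM (CENPE) to 141 FPKM (TOP2A), where FPKM is a count scaled to transcript length and library size.

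The promoters of the members share sequence features that do not depend on the expression values. RefSeq windows (GRCh38.p14) from 250 bases before to 50 after a transcript start were available for 39 of the 45 members, and not for AURKA, BIRC5, BUB3, FOXM1, TPX2 and TTK. The letters TTTGAA, the core of the cell cycle genes homology region to which MuvB complexes bind, were searched on both strands and occurred in 26 of the 39 (66.7%), against 18.2% of the 27305 genes with a window. The related TTTAAA, which reads the same on both strands, occurred in 15 (38.5%, against 14.5%), and CCAAT, the box bound by NF-Y, in 32 (82.1%, against 39.7%). One of the TTTGAA or TTTAAA forms together with CCAAT was present in 26 members (66.7%, against 11.2%). Matches to different strings can share at most 1 base, and a match is a string in a window, not a bound site.

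The promoters of 3 members with lower counts in shNXN cells (CDK1, KIF11 and ANLN) and of 3 with higher counts (PLK1, ESPL1 and INCENP) are shown, since the same elements stand in both. Each is the 120 bases that end at the base before a RefSeq start, all on the plus strand, with matches of either strand to these 3 strings in capitals. The genes were picked as examples, and where a gene had several windows the one with most matches in this stretch is shown. They lie at chr10:60778358-60778477 (CDK1), chr10:92593010-92593129 (KIF11), chr7:36389742-36389861 (ANLN), chr16:23678769-23678888 (PLK1), chr12:53268179-53268298 (ESPL1) and chr11:62123891-62124010 (INCENP).
CDK1: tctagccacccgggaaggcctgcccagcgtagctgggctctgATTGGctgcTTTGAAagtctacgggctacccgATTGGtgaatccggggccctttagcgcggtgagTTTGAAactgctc
KIF11: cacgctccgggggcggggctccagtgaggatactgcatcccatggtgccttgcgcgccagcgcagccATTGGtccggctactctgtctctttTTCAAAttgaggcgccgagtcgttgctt
ANLN: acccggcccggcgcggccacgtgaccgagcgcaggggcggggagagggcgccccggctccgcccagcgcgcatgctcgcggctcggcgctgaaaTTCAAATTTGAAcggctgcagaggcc
PLK1: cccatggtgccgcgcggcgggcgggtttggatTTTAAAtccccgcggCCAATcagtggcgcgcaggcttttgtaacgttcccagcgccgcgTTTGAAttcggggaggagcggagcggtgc
ESPL1: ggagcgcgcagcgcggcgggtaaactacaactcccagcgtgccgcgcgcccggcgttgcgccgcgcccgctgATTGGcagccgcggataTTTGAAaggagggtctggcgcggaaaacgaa
INCENP: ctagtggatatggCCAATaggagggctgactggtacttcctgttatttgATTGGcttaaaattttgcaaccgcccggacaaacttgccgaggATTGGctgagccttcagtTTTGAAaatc
A TTTGAA element lies within the last 31 bases before the start in all 6 promoters. As picked examples with windows chosen by their matches, they give no rate for the members. In a second CDK1 window the only TTTGAA match begins at base -161, and over the members TTTGAA was found in 26 of 39. In ANLN an inverted copy and a direct copy adjoin. Of the members with a window, TTTGAA or TTTAAA was found in 21 of 24 with a log2 fold change below 0 and in 12 of 15 with one above 0. The single strings were split less evenly. TTTGAA was found in 18 of the 24 and 8 of the 15, and TTTAAA in 8 of the 24 and 7 of the 15.

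The members did not move as 1 block between shControl and shNXN cells. Of the 45, 28 had a log2 fold change below 0 (48.6% of all features) and 17 above 0, with a median of -0.29 and a range from -3.50 (TTK) to 0.62 (BIRC5). The median over all 14071 tested features was 0.03. On log2(FPKM + 0.1), 22 members were above and 23 below 0, with a median of -0.0128, where that of all features was 0.16. In the edgeR quasi-likelihood test, 2 members passed an adjusted p of 0.05, both lower in shNXN cells (ASPM and MAD2L1), beside 3.39% of all tested features, 3.21% called lower and 0.185% called higher. At an unadjusted p under 0.05 there were 26 members, beside 32.9% of all features. Without the shNXN library of day 11, 26 members were called (25.8% of all features). Without shControl day 7, shControl day 11, shNXN day 7 or shNXN day 9 the count was 0, as for all features. Library numbers follow the day and so pair the groups. With the day as a block, 14 members were called lower and 9 higher, beside 17% and 6.28% of all features. In 18 members every shNXN library lay below every shControl library (21.5% of all features), and in 14 every shNXN library lay above (19%). Together the members took 0.564 to 0.608% of the counts in shControl libraries and 0.456 to 0.546% in shNXN libraries.

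**Figure D1:**
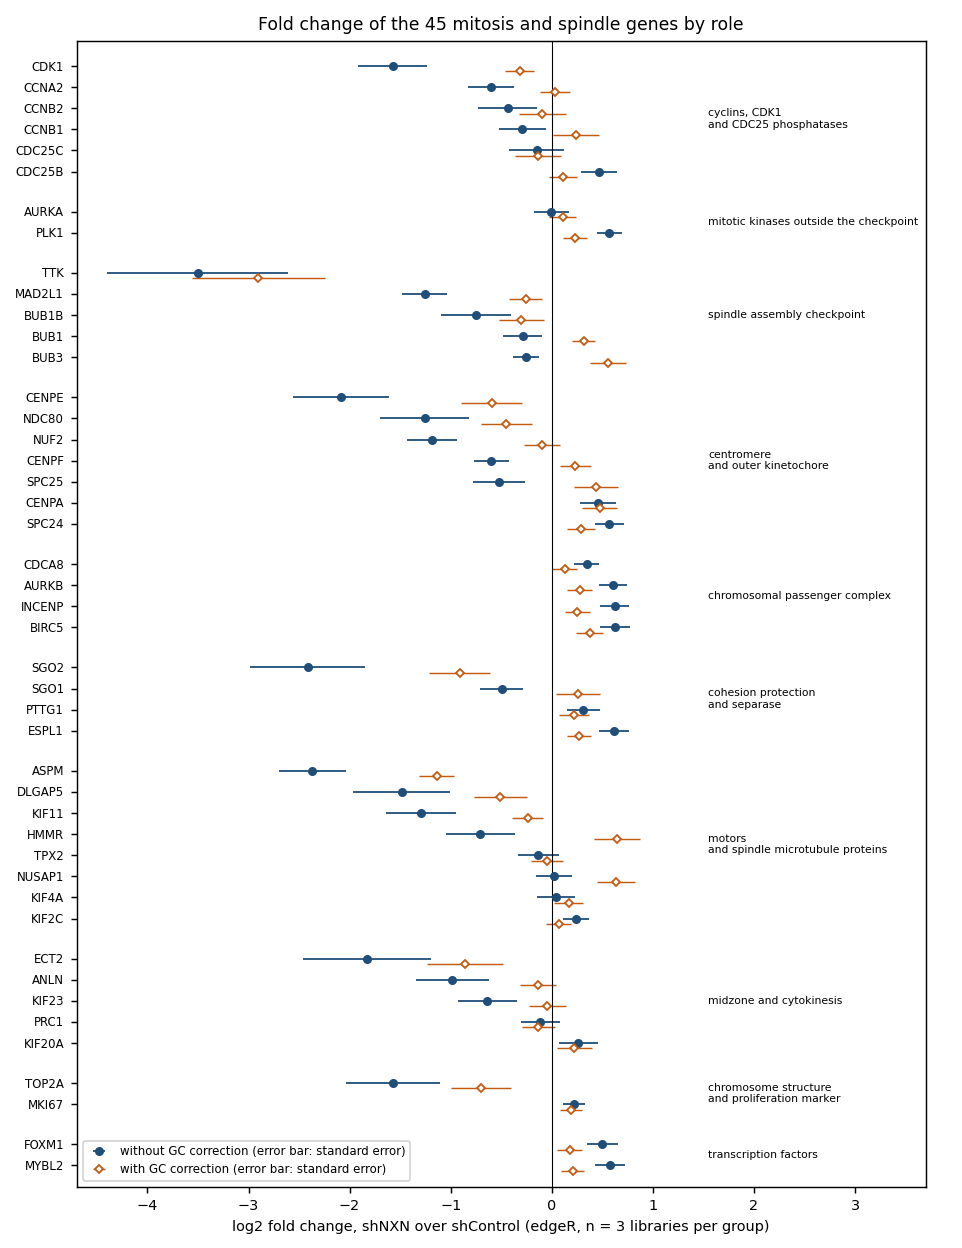
Log2 fold change of shNXN over shControl cells (horizontal axis) for each of the 45 genes (vertical axis), grouped by role, from edgeR with 3 libraries per group; circles are without and diamonds with a correction for transcript GC content, and bars are standard errors. The chromosomal passenger complex and the transcription factors lie above 0, the checkpoint genes lie below 0 without the correction (BUB1 and BUB3 above it with the correction), and TTK at -2.90 and ASPM at -1.14 have the lowest corrected values.

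The position of a member in that range followed the GC content of its transcript. Over the 45 members the fold change and the GC content of the longest GENCODE 29 transcript had a Spearman rho of 0.939, and over the 12740 tested features with a GC value it was 0.789, so the trend was not particular to mitosis genes. These values are descriptions, since all points share the same 6 libraries. Of the 25 members under 45% GC, 24 were below 0, where 91.6% of all features in that class were. Of the 9 members between 45 and 50% GC, 4 were below 0 (55.1% of all features), and of the 11 members over 50% GC, 0 were below 0 (9.97%). The class bounds were chosen after the values were seen.

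By library, the trend was described relative to the mean of each member over all libraries. The deviations of a member sum to 0. Opposite signs between the groups therefore partly restate the group difference and do not show the trend in one library alone. The log2 deviation of a library from the mean of a member had a rho with GC of -0.925, -0.517 and -0.938 over the members in shControl cells and of 0.905, 0.906 and 0.353 in shNXN cells. The relation was weakest in shControl day 9 and shNXN day 11. When a spline of GC content was fitted in each library and removed, the median of the members became 0.11, 26 were above 0 and 19 below, and 0 members were called, where 0.0355% of all features were. A relation with GC remained among the members. Their corrected fold change had a rho of 0.498, against -0.0459 over all features with a GC value. Over the 106 tested mitosis genes outside the members, described below, it was 0.408, so this relation was not particular to the members. The 11 members over 50% GC all stayed above 0, with a median of 0.23, against -0.014 for all features in that class. The 33 other mitosis genes in that class had a corrected median of 0.16, with values down to -0.15. With the day block and GC correction together 0 members were called as well (1.02% of all features), so every call of a member in the shNXN against shControl comparison with the block was lost there. The lowest edgeR adjusted p of a member in that fit was 0.0514 (ASPM), with SGO2 at 0.0588 and TTK at 0.0659. With GC correction alone, 9 members changed sign: CCNA2, CCNB1, AURKA, BUB1, BUB3, CENPF, SPC25, SGO1 and HMMR. In the fit with GC correction alone the lowest adjusted p of a member was 0.0771 (ASPM). There, 12 members with a fold change of at least 1 on the log2 scale became 2, TTK and ASPM. The correction removes differences that follow GC content over all features, whatever their source, and what produced the trend was not tested.

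**Figure D2:**
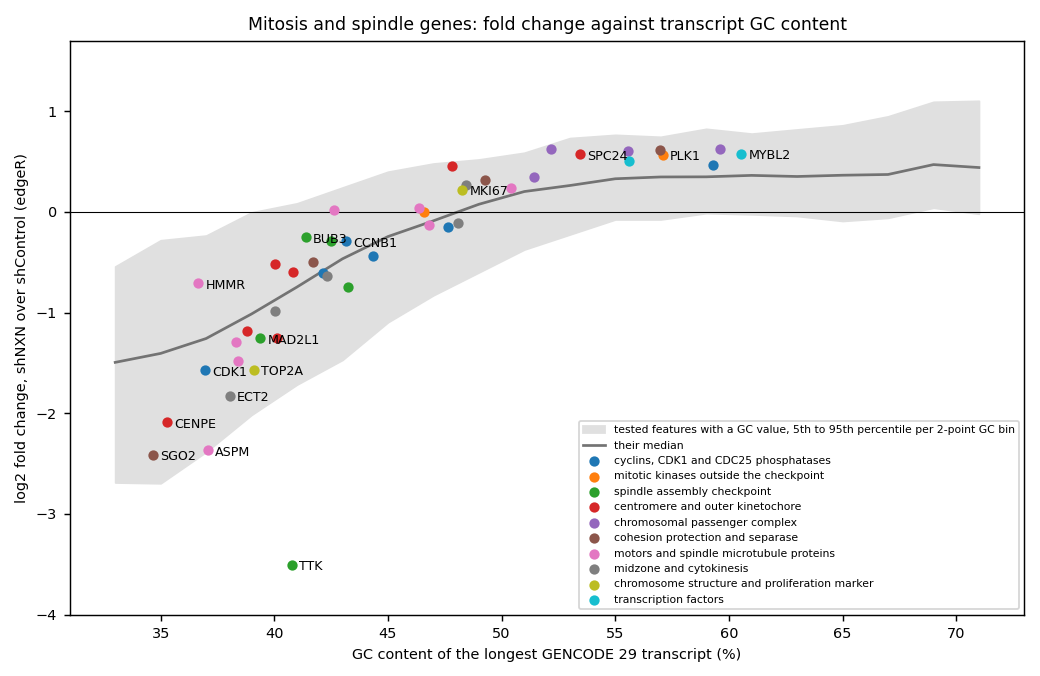
Log2 fold change of shNXN over shControl cells against the GC content (%) of the longest transcript; coloured points are the 45 genes by role, the line is the median and the band the 5th to 95th percentile of tested features in bins of GC content. Most members lie inside the band and rise with it from SGO2 at 34.7% GC to MYBL2 at 60.5% GC, and TTK lies far below it.

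**Figure D3:**
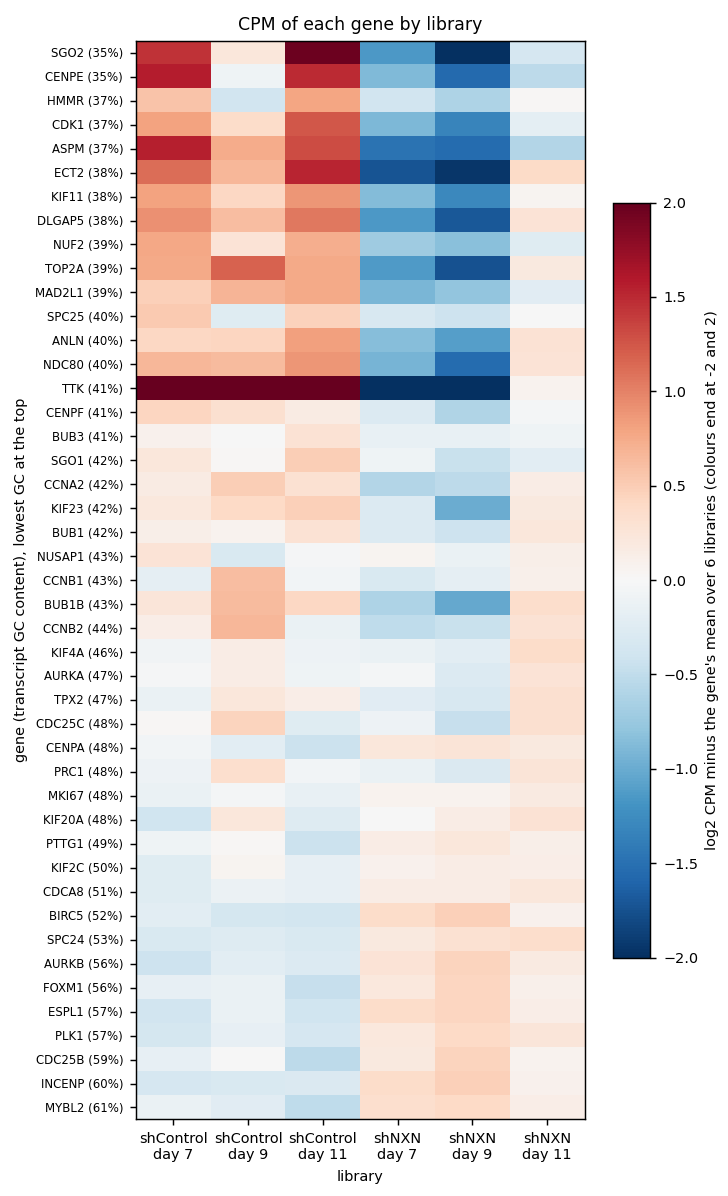
Log2 CPM of each gene (rows, ordered from low to high transcript GC content) in each library (columns) as the deviation from its mean over the 6 libraries; red is above and blue below the mean. The colours turn over from the low-GC genes at the top to the high-GC genes at the bottom, and the shNXN library of day 11 is paler than those of days 7 and 9.

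Among cyclins, CDK1 and the CDC25 phosphatases, 5 of 6 had a fold change below 0. CDK1 (chr10:60778331-60794852), the kinase that drives entry into mitosis, measured 68.5, 50.1 and 92.1 CPM in shControl cells and 20.9, 15.7 and 34.1 CPM in shNXN cells. Its groups did not overlap, and its log2 fold change was -1.57 ± 0.34 (adjusted p = 0.0534, and 0.0142 with the block). CDK1 has a transcript of 37.0% GC, and its corrected value was -0.32 ± 0.15 (adjusted p = 0.317).

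The partner of CDK1 did not show the same difference. CCNB1, cyclin B1, measured 128, 223 and 139 CPM in shControl cells and 117, 128 and 155 CPM in shNXN cells, and its groups overlapped, with the shControl library of day 9 far above the other 5. Its fold change was -0.29 ± 0.24 (adjusted p = 0.405) and changed sign to 0.24 after GC correction. CCNA2 and CCNB2, the other cyclins, had fold changes of -0.60 and -0.44, neither called with or without the block, and CDC25C had -0.15.

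CDC25B, a phosphatase that starts the activation of CDK1, had higher values in every shNXN library. It measured 139, 154 and 108 CPM in shControl cells and 179, 212 and 163 CPM in shNXN cells, a fold change of 0.47 ± 0.18 (adjusted p = 0.126, and 0.0345 with the block). The 2 phosphatases CDC25B and CDC25C differ in GC content (59.3% and 47.6%), and after correction they were at 0.11 and -0.13.

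Of the mitotic kinases outside the checkpoint, PLK1 was higher in shNXN cells and AURKA was near 0. PLK1, which promotes mitotic entry and spindle assembly, measured 209.9, 238 and 211 CPM in shControl cells and 311, 350.3 and 317 CPM in shNXN cells. The shNXN libraries all stood above the shControl libraries, with a fold change of 0.57 ± 0.12 (adjusted p = 0.0532, and 0.0213 with the block), or 0.23 after GC correction. AURKA, the centrosomal Aurora kinase, measured 85.2, 95.7 and 81.6 CPM in shControl cells and 84.6, 72.0 and 105 CPM in shNXN cells and overlapped between groups, with a fold change of -0.0043 ± 0.17 (adjusted p = 0.988).

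The 5 spindle assembly checkpoint genes were all below 0 in counts, though BUB1 and BUB3 were above 0 after GC correction, and they held both the lowest member and one of the 2 called. MAD2L1 (chr4:120055608-120067074), which encodes the MAD2 protein that inhibits the anaphase-promoting complex, measured 50.5, 57.8 and 61.4 CPM in shControl cells and 19.2, 20.9 and 30.9 CPM in shNXN cells. The means were 56.6 ± 5.55 CPM and 23.7 ± 6.32 CPM (SD, n = 3), 2.39-fold lower in shNXN cells. The log2 fold change of -1.26 ± 0.22 passed the test (edgeR adjusted p = 0.0452), and it was -0.26 ± 0.16 after GC correction (adjusted p = 0.486). It was not called without any single library other than shNXN day 11, with adjusted p values from 0.056 to 0.225 in those 5 fits.

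TTK (chr6:80003887-80042527), the MPS1 kinase that starts checkpoint signalling at unattached kinetochores, showed the largest difference of the 45. It measured 52.9, 46.7 and 51.4 CPM in shControl cells, a narrow range, and 1.34, 0.796 and 11.2 CPM in shNXN cells. The shNXN libraries of days 7 and 9 were near the bottom of the range, that of day 11 was higher, and the fold change of -3.50 ± 0.90 had a wide error (adjusted p = 0.0671, and 0.0273 with the block). TTK has 40.8% GC, a value at which most features had far smaller differences. Its corrected fold change was still -2.90 ± 0.66 (adjusted p = 0.103).

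BUB3, an adaptor of the checkpoint complex, is the case in which the unit decided the sign. Its counts gave 162, 152 and 185 CPM in shControl cells and 138, 137 and 143 CPM in shNXN cells, with a fold change of -0.25 ± 0.13 (adjusted p = 0.204). On the FPKM scale its mean was 138 in shControl and 253 in shNXN cells. BUB1 and BUB1B, the checkpoint kinase and pseudokinase, had count fold changes of -0.29 and -0.75, neither called, and they too changed sign on the FPKM scale.

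In the centromere and outer kinetochore group, 5 of 7 were below 0 and the NDC80 complex was split. CENPE, the kinesin that carries chromosomes to the metaphase plate, measured 58.2, 18.5 and 55.4 CPM in shControl cells and 10.6, 6.68 and 13.7 CPM in shNXN cells. The shControl library of day 9 was well under the other 2, yet above all shNXN libraries, and the fold change was -2.09 ± 0.48 (adjusted p = 0.0575, and 0.0144 with the block). With GC correction it was -0.59 ± 0.30.

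The NDC80 complex, 4 subunits that form the microtubule-binding arm of the kinetochore, had fold changes of -1.26 for NDC80, -1.18 for NUF2, -0.52 for SPC25 and 0.57 for SPC24. SPC24 measured 28.7, 29.6 and 28.6 CPM in shControl cells and 40.4, 43.5 and 45.2 CPM in shNXN cells (fold change 0.57 ± 0.15, adjusted p = 0.0665, and 0.0358 with the block). NDC80 and NUF2 were called with the block (adjusted p = 0.0363 and 0.0187). NDC80, NUF2 and SPC25 have GC contents of 40.1%, 38.8% and 40.0%, against 53.4% for SPC24. After GC correction the 4 values were -0.45, -0.10, 0.44 and 0.29, none called. CENPF, a large protein of the outer kinetochore, had -0.60 (called with the block, adjusted p = 0.0481) and 0.23 after GC correction (adjusted p = 0.225 with both), and CENPA, the centromeric histone, had 0.46 and was not called.

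All 4 genes of the chromosomal passenger complex, which corrects faulty attachments and acts at the midzone, were above 0. BIRC5, survivin, measured 93.3, 84.8 and 83.5 CPM in shControl cells and 139, 150.4 and 114 CPM in shNXN cells, a fold change of 0.62 ± 0.15 (adjusted p = 0.0607, and 0.0286 with the block). The groups did not overlap in any of the 4 genes. CDCA8, borealin, had the smallest difference, from 67.0, 73.4 and 70.6 CPM in shControl cells and 87.4, 87.9 and 92.9 CPM in shNXN cells (fold change 0.35 ± 0.12, adjusted p = 0.114, and 0.0657 with the block). AURKB, the kinase, and INCENP, its scaffold, had 0.60 and 0.62, both called with the block (adjusted p = 0.0259 and 0.0312). The 4 transcripts hold 51.4% to 59.6% GC, and the corrected values were 0.13 to 0.37.

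Cohesion protection and separase split by gene. SGO2, a shugoshin that guards centromeric cohesin, measured 34.2, 14.8 and 49.1 CPM in shControl cells and 5.65, 2.82 and 9.92 CPM in shNXN cells, with a fold change of -2.42 ± 0.57 (adjusted p = 0.0604, and 0.0142 with the block). Its transcript has the lowest GC content of the members (34.7%), and the corrected fold change was -0.91 ± 0.30. ESPL1, separase, the protease that cuts cohesin at anaphase, measured 129, 152 and 127 CPM in shControl cells and 216, 227 and 183 CPM in shNXN cells (fold change 0.62 ± 0.14, adjusted p = 0.0597, and 0.0220 with the block), or 0.27 after GC correction. SGO1 and PTTG1, the second shugoshin and the separase inhibitor securin, had -0.50 and 0.31 and were not called.

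Among motors and spindle proteins, 5 of 8 were below 0, and ASPM had the smallest p of the members. ASPM (chr1:197084128-197146694), a spindle pole protein known from primary microcephaly, measured 209.6, 119 and 178 CPM in shControl cells and 25.7, 24.5 and 47.8 CPM in shNXN cells. The means were 169 ± 45.8 CPM and 32.7 ± 13.1 CPM (SD, n = 3), 5.17-fold lower in shNXN cells. Its fold change of -2.37 ± 0.33 passed the test (edgeR adjusted p = 0.0412), and the corrected value of -1.14 ± 0.17 did not (adjusted p = 0.0771). It was not called without shControl day 7, shControl day 11, shNXN day 7 or shNXN day 9, with adjusted p values from 0.0665 to 0.225, and was called without either other library.

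DLGAP5 and KIF11 stood next to ASPM. DLGAP5, a microtubule stabiliser near the kinetochore, had -1.49, and KIF11, the kinesin that separates spindle poles, had -1.30, both called with the block (adjusted p = 0.0282 and 0.0195). Their GC-corrected values were -0.51 and -0.24, not called with block and correction together (adjusted p = 0.203 and 0.329). At the other end of the group KIF2C, the depolymerising kinesin at centromeres, measured 133, 164 and 141 CPM in shControl cells and 168, 175 and 173 CPM in shNXN cells (fold change 0.24 ± 0.13, adjusted p = 0.230). The microtubule-binding proteins HMMR and NUSAP1, the chromokinesin KIF4A and the AURKA activator TPX2 had -0.71, 0.02, 0.04 and -0.13, none called in either fit.

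Of 5 midzone and cytokinesis genes, 4 were below 0. ECT2, the exchange factor that activates RhoA for the cleavage furrow, measured 169, 123 and 224 CPM in shControl cells and 23.5, 20.2 and 102 CPM in shNXN cells. The shNXN library of day 11 lay far above those of days 7 and 9 and still under every shControl library, and the fold change was -1.83 ± 0.63 (adjusted p = 0.106, and 0.0220 with the block), or -0.86 after GC correction. ANLN, anillin of the contractile ring, had -0.98 (adjusted p = 0.0275 with the block), or -0.14 after GC correction. KIF20A, a kinesin of the midzone, overlapped between groups at 74.4, 115 and 81.6 CPM in shControl cells and 97.7, 108 and 119 CPM in shNXN cells (fold change 0.26 ± 0.19, adjusted p = 0.361). KIF23 and PRC1, the centralspindlin kinesin and the microtubule bundler, had -0.64 and -0.11, not called.

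TOP2A and MKI67, the most used proliferation markers here, lay on opposite sides of 0. TOP2A (chr17:40388516-40417950), the topoisomerase that untangles sister chromatids, measured 689, 925 and 689.7 CPM in shControl cells and 186, 123 and 467 CPM in shNXN cells. Its fold change was -1.57 ± 0.47 (adjusted p = 0.0817, and 0.0463 with the block). MKI67, the Ki-67 antigen that coats mitotic chromosomes, measured 358, 384 and 354 CPM in shControl cells and 416, 416 and 445 CPM in shNXN cells, slightly higher in every shNXN library (fold change 0.22 ± 0.11, adjusted p = 0.207). The transcripts differ in GC content, 39.1% for TOP2A and 48.3% for MKI67, and the corrected values were -0.70 and 0.19.

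Both transcription factors of the G2/M program were above 0. FOXM1 measured 148, 152 and 121 CPM in shControl cells and 194, 225 and 179 CPM in shNXN cells (fold change 0.50 ± 0.15, adjusted p = 0.0846, and 0.0301 with the block). MYBL2, which encodes B-MYB, measured 212, 199 and 165 CPM in shControl cells and 295, 309 and 255 CPM in shNXN cells (fold change 0.58 ± 0.15, adjusted p = 0.0672, and 0.0224 with the block). After GC correction the 2 were at 0.18 and 0.21. CDK1 and PLK1, both known targets of this program, lay on opposite sides of 0.

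By day, the differences were smaller on day 11 in the low-GC members. The median log2 difference of the 45 was -0.23, -0.49 and 0.15 for days 7, 9 and 11, and for all tested features it was close to 0 on each (0.07 on day 11). Over the 25 members under 45% GC it was -1.27, -1.46 and -0.61, and over the 11 members above 50% GC it was 0.49, 0.56 and 0.53. The sign was the same on each day for 22 members below 0 (32.6% of all features) and 14 above 0 (35.8%). Daily medians of all features under 45% GC were not computed. Over all features with a GC value, the deviations of the shNXN libraries had a rho with GC of 0.714, 0.75 and 0.0922. The weak relation in shNXN day 11 was thus not particular to the members. The daily differences themselves had a rho with GC of 0.943, 0.84 and 0.912 over the members. For all features with a GC value it was 0.742, 0.675 and 0.724, so the difference followed GC content on day 11 too. After GC correction the daily medians of the members were 0.11, -0.03 and 0.19. With a single library for each group and day, no test of one day was made.

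**Figure D4:**
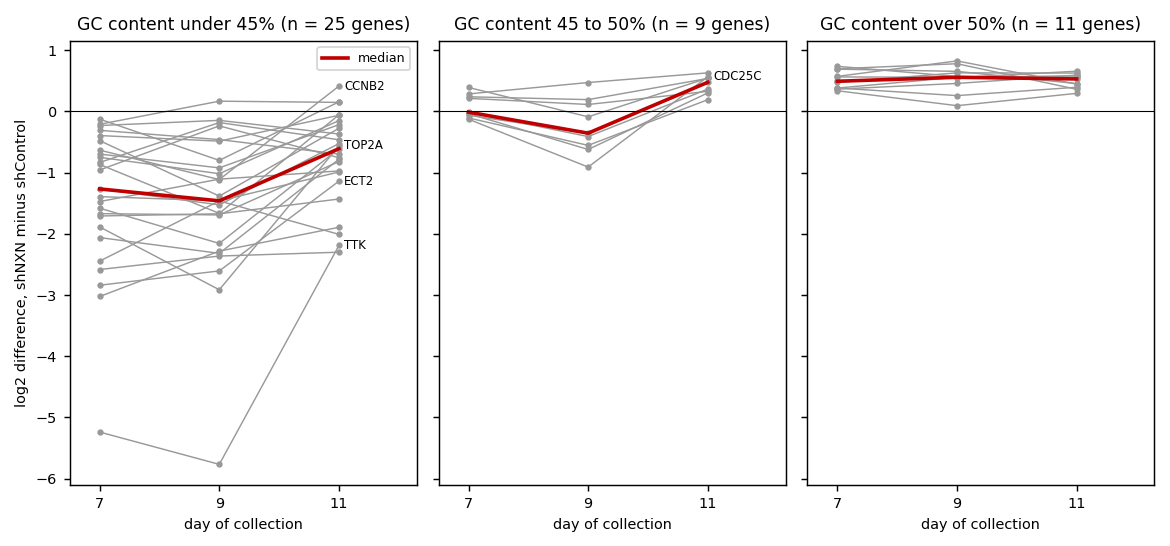
Log2 difference between shNXN and shControl cells (vertical axis) on days 7, 9 and 11 for each gene, in panels by transcript GC content; the thick line is the median of the panel. The medians are -1.27, -1.46 and -0.61 under 45% GC and 0.49, 0.56 and 0.53 over 50% GC, and TTK is the lowest line on days 7 and 9.

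The day 11 difference was tested against days 7 and 9 together, a fit with 2 residual degrees of freedom. Of the members, 38 had a day 11 difference above that of the earlier days (8502 of all 14071 features). None was called in edgeR, where 0.0355% of all features were, while 12 had an unadjusted p under 0.05 (13.4% of all features) and DESeq2 called 3 (2.59%). TTK had daily differences of -5.24, -5.77 and -2.19, and its shift of 3.34 ± 0.40 had an adjusted p of 0.0614. With the day as a block, 4 members were called, TTK, ECT2, TOP2A and DLGAP5 (TTK adjusted p = 0.00684, ECT2 0.0203), beside 2.7% of all features, from 1 residual degree of freedom. With GC correction and no block, 0 members were called, beside 0.0355% of all features. In that fit 29 members had a day 11 difference above that of the earlier days (6674 of all 14071 features). ECT2 had daily differences of -2.84, -2.61 and -1.14 and TOP2A of -1.89, -2.91 and -0.56. CDK1 varied less over the days, at -1.71, -1.67 and -1.43.

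The 2 units of the tables also gave a length for each gene and library, since an estimated count divided by its FPKM and by the library total gives the effective transcript length that the authors' software used. This assumes that the FPKM values were scaled to the deposited counts. KIF11 and CCNA2, for which that length hardly varied, ranged from 0.98 to 1.01 between shNXN and shControl on the same day. In 9 members the implied length was at least 1.5 times shorter in shNXN cells on both day 7 and day 9: BUB1B, BUB3, CENPE, NDC80, NUF2, SGO2, ANLN, ECT2 and TOP2A. Of 11519 tested features with at least 1 FPKM in every library, 9.51% were. The ratio of 1.5 was chosen after the values were seen.

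SGO2 shows the pattern. Its implied length was 3717, 3280 and 3702 bases in shControl cells and 631, 589 and 3040 bases in shNXN cells, so only the shNXN library of day 11 stood near the controls. BUB1B had 2782, 3257 and 2664 bases against 870, 639 and 2410. NDC80 had 1854, 1885 and 1839 bases against 909, 619 and 1854. In each of these 3 the libraries of shNXN days 7 and 9 gave shorter lengths, and that of day 11 lay nearer the controls. BUB3 was shorter on each day, with 1242, 1111 and 1254 bases against 505, 488 and 714.

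By day, 11, 12 and 2 of 44 members (25%, 27.3% and 4.55%) were at least 1.5 times shorter in shNXN cells, and 14.6%, 12.5% and 7.51% of all features were. TTK was under 1 FPKM in a library and is not among the 44. A shorter assigned length raises FPKM for the same count, so the mean FPKM of BUB1B was 44.6 in shControl and 65.8 in shNXN cells although its count fold change was -0.75. For BUB1B, BUB3, AURKA, BUB1 and PRC1 the sign differed between the units. The ratio had a rho with GC content of 0.468, 0.425 and 0.245 over the members by day. Over the 10987 such features with a GC value it was 0.329, 0.152 and 0.427, highest on day 11. Whether other transcripts were made or read coverage differed along the transcripts was not tested, since the tables hold genes only.

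**Figure D5:**
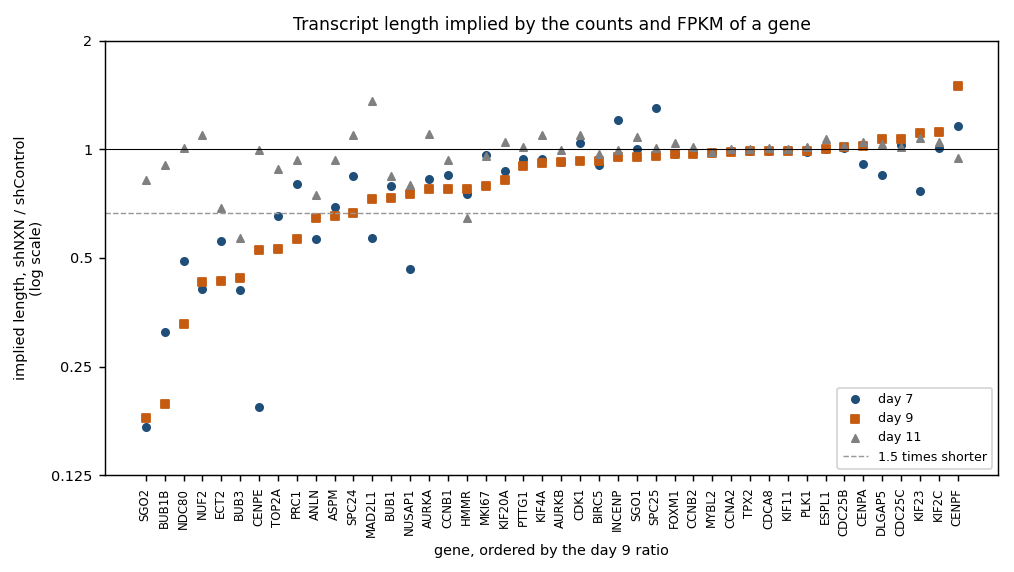
Ratio of the implied transcript length in shNXN over shControl cells on the same day (vertical axis, log scale) for the 44 genes with at least 1 FPKM in every library, ordered by the day 9 ratio; circles are day 7, squares day 9 and triangles day 11. SGO2, BUB1B, NDC80 and NUF2 lie below the dashed line (1.5 times shorter) on days 7 and 9 and between 0.821 and 1.10 on day 11.

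Other genes of mitosis outside the 45 gave the background of the pathway. Of 108 listed, 106 were tested (not CCNA1 and CCNB3), with a median fold change of -0.20, 47 above and 59 below 0. Of these, 5 were called, all lower, and among them were STAG2 (-2.03) and NIPBL (-1.45) of the cohesin system, FBXO5 (-1.62), an inhibitor of the anaphase-promoting complex, and HAUS6 (-1.46) of augmin, with adjusted p values from 0.0452 to 0.0482. Those 5 were 4.72% of the 106, near the 3.39% of all tested features that were called. With the block 19 were higher and 38 lower (17.9% and 35.8%), beside 6.28% and 17% of all features. With GC correction 0 were called, beside 0.0355% of all features. The lowest fold changes were those of KIF20B (-2.70), CENPQ (-2.56) and KNL1 (-2.35), and the highest those of UBE2S (0.67), GTSE1 (0.64) and E2F1 (0.64). KNL1, the scaffold of the kinetochore that recruits BUB1, has 38.1% GC, and UBE2S, which extends ubiquitin chains in mitosis, has 55.7%. The subunits of cohesin and their regulators had a median of -1.26 (median GC 40.2%), and those of condensin 0.07 (44.5%). After GC correction these medians were -0.34 and 0.11.

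The inhibitors of cyclin-dependent kinases were not called. CDKN1A, the p21 inhibitor, measured 68.3, 44.1 and 124 CPM in shControl cells and 108, 66.8 and 109 CPM in shNXN cells (fold change 0.27 ± 0.38, adjusted p = 0.639), and CDKN1B, the p27 inhibitor, measured 72.2, 48.2 and 49.3 CPM in shControl cells and 87.7, 93.9 and 58.7 CPM in shNXN cells (fold change 0.50 ± 0.24, adjusted p = 0.194). CDKN1C, CDKN2A, CDKN2B, CDKN2C and CDKN2D had fold changes between 0.29 and 0.62. RB1, the pocket protein that restrains E2F, was low in both groups and lower in shNXN cells, at 3.21, 2.03 and 3.74 CPM in shControl cells and 0.486, 0.674 and 0.966 CPM in shNXN cells (fold change -2.07 ± 0.40, adjusted p = 0.0482), with -0.82 ± 0.34 after GC correction (adjusted p = 0.269).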

How the data were processed

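Total RNA of Hep-3B cells was sequenced in 6 libraries, and the labels do not state whether these came from separate cultures. The authors deposited estimated counts per gene and library, and a separate FPKM table of the same features, both per the file headers. The aligner, counter and annotation are not given in the sources used here, and the submitters' processing notes list the mouse builds GRCm38 and mm10 although the identifiers are human. There were 0 columns without a sample.

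Estimated counts, after rounding, entered the quasi-likelihood test of edgeR 4.0.16 in R 4.3.3 (TMM factors, filterByExpr), and features with a Benjamini-Hochberg adjusted p under 0.05 over 14071 tested features were called. The standard error was the fold change over the root of F. Estimated counts share reads among paralogs, and antisense reads cannot be told apart. Daily differences used TMM-scaled log2 CPM with a prior count of 1. GC content came from GENCODE 29 by Ensembl identifier, known for 12740 features, and the correction was a natural spline with 5 degrees of freedom per library. Alternatives were DESeq2 1.42.0, limma 3.58.1 on log2(FPKM + 0.1) and log2(FPKM + 1), other scalings and filters, the replicate block, and each library left out in turn. Same-day libraries of the groups deviated together (correlations of 0.28, 0.30 and 0.43), and the labels tie the numbers to days, so the block pairs them. Replicates differed beyond sampling noise (chi-square per gene 21.3 to 82.8). The fits were also run on simulated counts. Those counts had a fixed spread and no day effects, so that run does not show how the fits perform at the spread seen here. A comparison of 3 against 3 libraries cannot give an exact permutation p under 0.1.

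The members, the lists of other mitosis genes, inhibitors and cell type markers, and the day 11 contrast were chosen with earlier results of these data known. Values per library are given for CDK1, CCNB1, MKI67, TOP2A, members with an adjusted p under 0.05, and the lowest and highest member of each role. Of the other mitosis genes, those called and the 3 lowest and 3 highest with a mean of at least 1 CPM are named. Members outside this rule are accounted for by fold change, and the genes shown for implied length were picked with their values in view. Some listed genes are not reported here.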

Additional observations from a re-analysis of the deposited data

Results flagged for a closer look

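In 7 members the shNXN library was below the shControl library of the same day on days 7 and 9 and above it on day 11. None of these shifts passed the test of the day 11 difference against days 7 and 9 (edgeR, 2 residual degrees of freedom). CCNB1 had log2 differences of -0.12, -0.80 and 0.16 on days 7, 9 and 11 (adjusted p = 0.595). CCNB2 had -0.63, -1.11 and 0.41 (adjusted p = 0.156), and CDC25C had -0.13, -0.91 and 0.57 (adjusted p = 0.259). AURKA had -0.01, -0.41 and 0.37 (adjusted p = 0.41). KIF4A had -0.06, -0.35 and 0.48 (adjusted p = 0.285). TPX2 had -0.11, -0.55 and 0.19 (adjusted p = 0.461). PRC1 had -0.03, -0.62 and 0.30 (adjusted p = 0.417). The share of all features with this order of signs was not computed, and the day 7 differences of AURKA and PRC1 were close to 0. After GC correction CCNB1 and AURKA were above 0 on day 7, at 0.48 and 0.14, while CCNB2 and CDC25C kept the order.

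CDKN1A and CDKN2B, inhibitors of cyclin-dependent kinases, had the opposite order. CDKN1A had 0.66, 0.60 and -0.18 (adjusted p = 0.56), and CDKN2B had 0.53, 1.81 and -0.53 (adjusted p = 0.581).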

How the results depend on the processing

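The number of members called depended on the setting. Against 2 in the edgeR fit it was 7 with RLE factors, 7 with library size only, 24 with DESeq2, 8 with no filter beyond 1 count in total, 4 with at least 10 counts in every library, 23 with the replicate block, 0 with GC correction and 0 with the block and GC correction. It was 1 by limma on FPKM with a pseudocount of 1 and 1 with a pseudocount of 0.1, 27 without the day 11 pair and 26 at an unadjusted p under 0.05. Leaving out 1 library gave 0 to 26, with 26 without shNXN day 11, 2 without shControl day 9 and 0 without any other, for the members and for all features alike in those 4 fits. In the same order, against 477, all features called numbered 826, 929, 3311, 818, 576, 3272, 5, 143, 287, 66, 4519 and 4625, and 0 to 3706 with 1 library left out. For the other mitosis genes, against 5, they numbered 13 with RLE factors, 14 with library size only, 57 with DESeq2, 12 with no filter, 57 with the block, 0 with GC correction, 1 with both, 0 on log2(FPKM + 0.1), 63 without the day 11 pair and 65 unadjusted, and 0 to 58 with 1 library left out. In the day 11 contrast, against 0, DESeq2 called 3 members, the block 4, GC correction 0 and an unadjusted p 12.

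The median of the members moved from -0.29 to 0.11 with GC correction and 0.12 with the block added, to -0.0129 and -0.0128 by limma on FPKM with a pseudocount of 1 and of 0.1, and ran from -0.41 to -0.16 with 1 library left out. That of the other mitosis genes moved from -0.20 to 0.078 and 0.082, to 0.018 and 0.0202 in the same FPKM fits, and ran from -0.36 to -0.10. The FPKM scale moved the median of all features from 0.03 to 0.13 and 0.16. On log2(FPKM + 0.1) the day 7 and day 9 medians of the members were 0.011 and -0.018.

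Among the members outside the naming rule, CCNA2, BUB1, CENPF, SPC25, SGO1 and HMMR changed sign with GC correction, BUB1, BUB1B and PRC1 on the FPKM scales, and KIF4A and NUSAP1 without the day 11 pair. Among the genes chosen by that rule the sign changed in 5. CCNB1 was 0.24 with GC correction, 0.28 with the block added and between -0.41 and 0.021 with 1 library left out. AURKA was 0.016 with RLE factors and with DESeq2, 0.032 without the filter, 0.11 with GC correction and with the block added, 0.15 and 0.16 on the FPKM scales and between -0.16 and 0.12 with 1 library left out. BUB3 was 0.55, 0.53, 0.85 and 0.86 with GC correction, the block added and the FPKM scales. CDKN1A was -0.087 with GC correction and between -0.0067 and 0.81 with 1 library left out, and CDKN2B was between -0.13 and 0.94 with 1 library left out. Over the genes chosen by the rule and the alternatives, 542 values kept direction and side of the threshold, 94 passed it newly, 71 no longer passed and 22 changed sign; the cause was not tested. Counts as low as 13 limit TTK, and 3 libraries per group limit every call.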
